A study of Canis lupus familiaris with 2 samples.

Results

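Most listed genes of stretches of 4 dog chromosomes were less abundant in the doxorubicin-resistant lymphoma line CLBL-1 8.0 than in its parental line CLBL-1. The genes described here are 201 of the 1729 rows of the authors' comparison table. They are all 31 rows of chromosome 32, all 46 rows of chromosome 36, the 34 rows of chromosome 4 with a start from 36000000 and an end up to 62200000, and the 90 rows of chromosome 5 with a start from 21900000 and an end up to 57500000. Positions are those of the deposited table, and CanFam3.1 is the dog genome build named in the submitters' processing notes. The stretches were picked because their rows were lower in the resistant line, so the direction of a row and the size of its difference describe these genes and test nothing.

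CLBL-1 is a canine diffuse large B-cell lymphoma line, labelled as lymph node tissue and tumour stage IV. CLBL-1 8.0 is a form of it with resistance to doxorubicin, kept in medium with 8 µM of the drug, whereas no drug is given for CLBL-1. Both lines were grown in RPMI medium with 10% fetal bovine serum and 1% penicillin G/streptomycin. Each line had 1 sample of poly-A-selected RNA from 3 dishes, so no difference has a replicate check, no p-value between the lines was computed, and exposure to the drug cannot be told apart from resistance. The sources used here do not say whether the resistant line is 1 clone. Of 9 B cell markers looked for, CD37 had a row, at 26.6 in CLBL-1 8.0 and 50.4 in CLBL-1. In a table of selected rows, the lack of a row says nothing of a marker's level. None of 8 T and NK cell markers had one. FCER1G, of 6 myeloid markers, was at 14.0 in CLBL-1 8.0 and 7.74 in CLBL-1, and EPCAM, of 6 stromal and epithelial markers, at 2.07 in CLBL-1 8.0 and 5.26 in CLBL-1. The part of such cells in the results was not tested.

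The table gives 1 abundance value per gene and line. Its unit is not named in the header and may be FPKM or TPM, which both scale for gene length, and the read depth is unknown. The rows are a selection: the higher of the 2 values was at least 5.01, and every row with a finite fold differed at least 1.59-fold. A gene that has no row was not analysed here. Log2 differences below are log2((CLBL-1 8.0 + 1)/(CLBL-1 + 1)), so a negative one means lower in the resistant line, and fold values are the plain ratio of the deposited values. In bulk RNA, fewer cells with a transcript and less of it per cell cannot be told apart.

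As background, the order of genes along a mammalian chromosome is mostly not an order by function. Apart from families made by local duplication, such as chemokines and homeobox genes, neighbours usually encode proteins of unrelated roles, and many are housekeeping genes that all dividing cells need. Doxorubicin intercalates into DNA and traps topoisomerase II. Lymphoma cells additionally carry the programme of the B lymphocyte, with its surface receptors, its actin regulators and its adaptor proteins of antigen receptor signalling.

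Of the 201 rows, 186 (92.5%) were lower in CLBL-1 8.0, beside 34.8% of all 1729 rows and 27.2% of the 1528 rows elsewhere. The lower rows were 45 of 46 on chromosome 36, 84 of 90 on chromosome 5, 32 of 34 on chromosome 4 and 25 of 31 on chromosome 32. Their transcripts were spread over both strands, with 86 lower rows on the plus strand and 100 on the minus strand. For the 201 rows, the log2 difference had a median of -0.92, with quartiles of -1.19 and -0.77. It was -0.98 for chromosome 36, -0.94 for chromosome 5, -0.88 for chromosome 4 and -0.90 for chromosome 32. Taking the whole table, it was 0.73, because 1127 of them (65.2%) were higher in CLBL-1 8.0. On this scale 76 of the 201 rows (37.8%) were at least 2-fold lower, beside 14.4% of all rows. That count depends on the scaling: with upper-quartile scaling it was 177 rows, or 88.1%, beside 30.8% of all rows. Centred on the median of all rows, it was 186 rows, or 92.5%, beside 34.8% of all rows, and the median of the 201 became -1.66. Both scalings were computed from the listed rows alone, none of which had a finite fold under 1.59. They therefore reflect that selection and give no better estimate of how much lower these genes were.

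**Figure D1:**
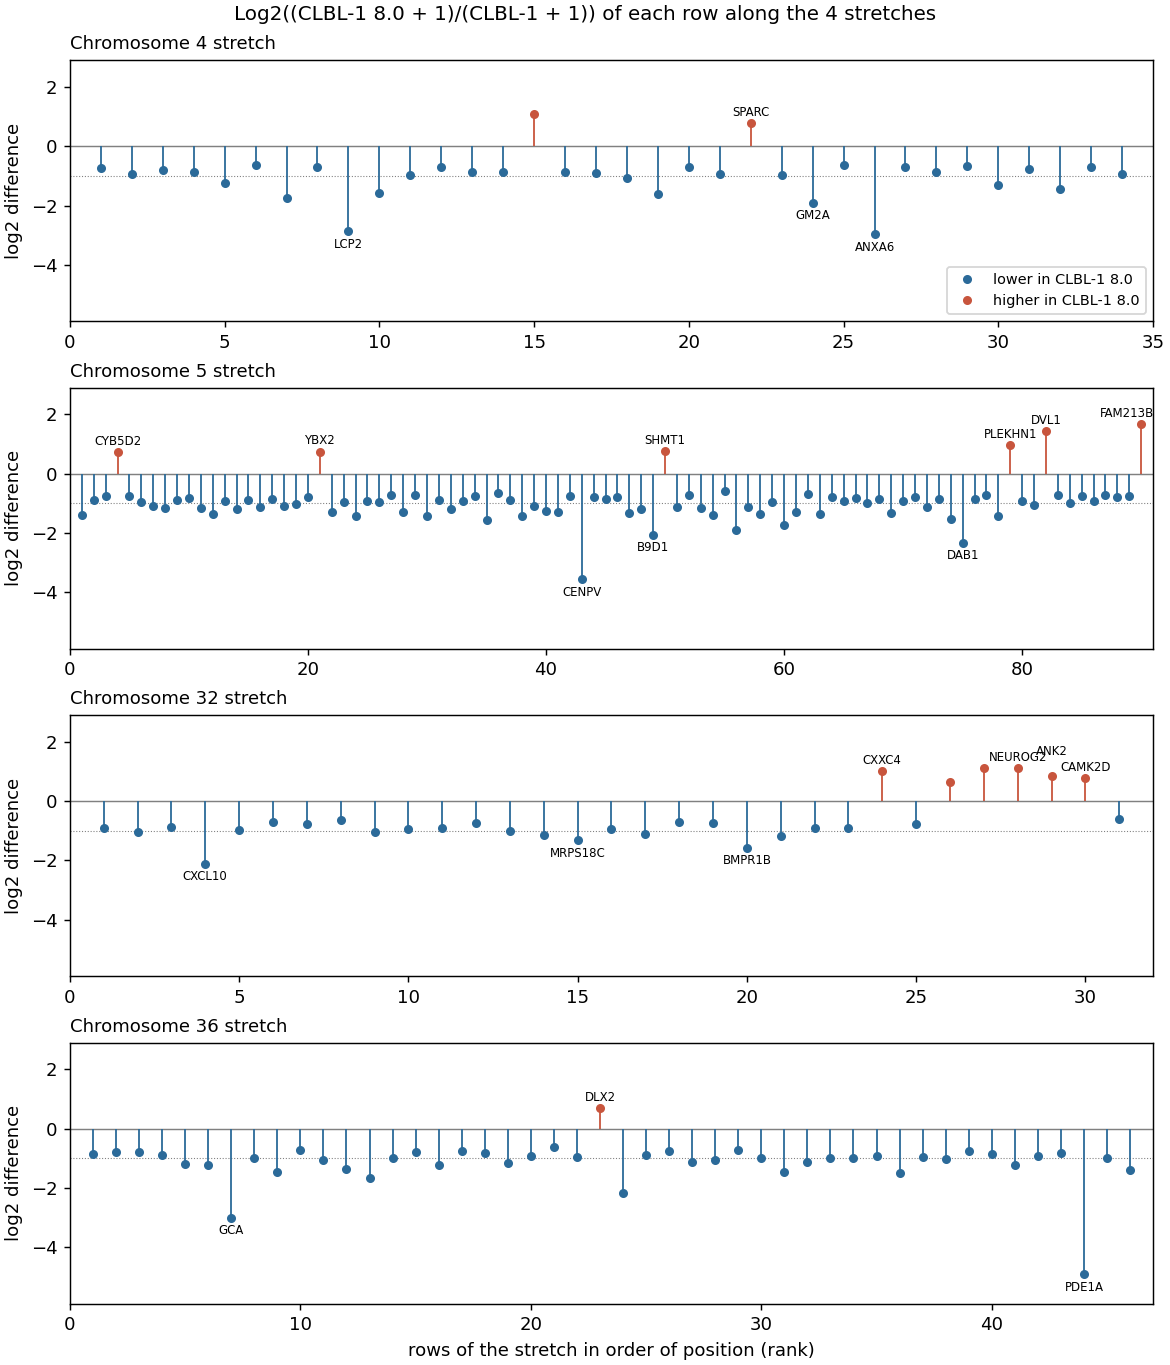
Log2((CLBL-1 8.0 + 1)/(CLBL-1 + 1)) of each of the 201 rows, 1 panel a stretch, with rows on the x axis in order of position and blue for lower and red for higher rows; the dotted line marks 2-fold lower on this scale. Most rows lie near the dotted line, with PDE1A at -4.92 the lowest, and 6 of the 15 higher rows lie at the right end of chromosome 32.

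**Figure D2:**
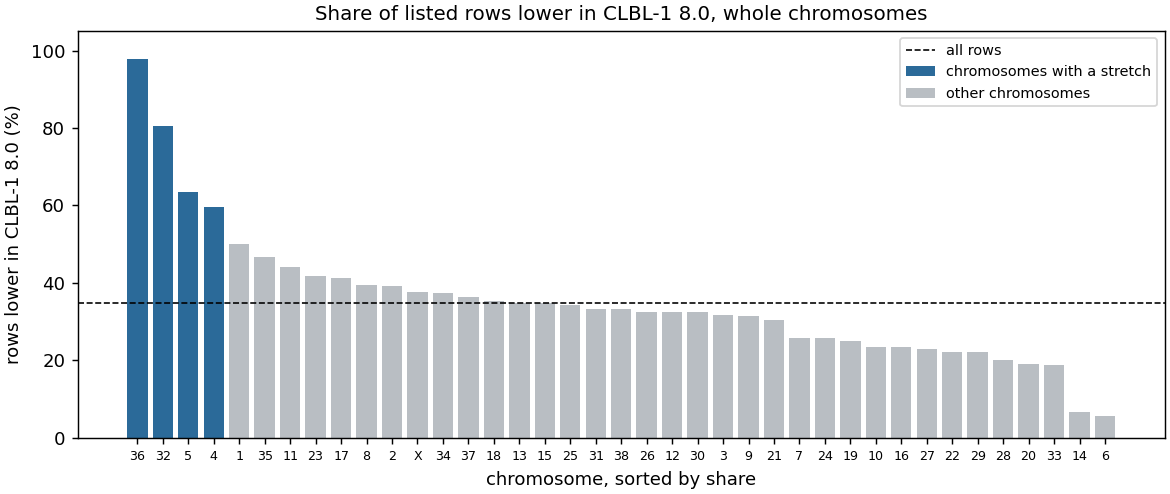
Percent of listed rows that were lower in CLBL-1 8.0, for whole chromosomes sorted by that percent, with chromosomes 36, 32, 5 and 4 in blue and all rows (34.8%) as a dashed line. Chromosomes 36 (97.8%), 32 (80.6%), 5 (63.4%) and 4 (59.7%) come first, before chromosome 1 (50%).

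The typical lower row was lower by about the same factor in each stretch. The median fold, CLBL-1 over CLBL-1 8.0, was 2.09 on chromosome 36, 1.997 on chromosome 5, 1.91 on chromosome 4 and 1.93 on chromosome 32. It was 1.995 over all 186 lower rows and 1.98 over the 410 lower rows elsewhere with a finite fold. The lower rows of the stretches were more abundant, with a median CLBL-1 value of 36.1 over the 186, against 19.9 over the 416 lower rows elsewhere. A fold of 3 or more was found for 22 of the 186 (11.8%), against 87 of the 410 (21.2%). Over all 1729 rows, 6.65% were at least 3-fold lower or listed at 0 in the resistant line, and no row of the stretches was listed at 0 in either line. These are descriptions of a selected table, in which no fold under 1.59 was listed.

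Among rows with a mean value of at least 50 over both lines, 66 of 69 in the stretches were lower, by 1.61- to 3.08-fold. LARP1 alone reached 3-fold. Elsewhere, 91 of 296 such rows were lower, by 1.596- to 1824-fold, and 10 of them reached 3-fold. The middle of these rows was no narrower in the stretches. For means of 50 to 100, the quartiles of the fold were 1.85 and 2.27 in the stretches, against 1.66 and 1.94 elsewhere. For means of 100 or more, they were 1.68 and 2.34 in the stretches, against 1.68 and 2.14 elsewhere. Rows under a mean of 10 were more scattered: 42 of 50 in the stretches were lower, with quartiles of the fold at 1.87 and 3.56, against 1.83 and 3.74 elsewhere. At such low values a fold rests on little signal, and with an unknown depth its error is unknown.

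**Figure D3:**
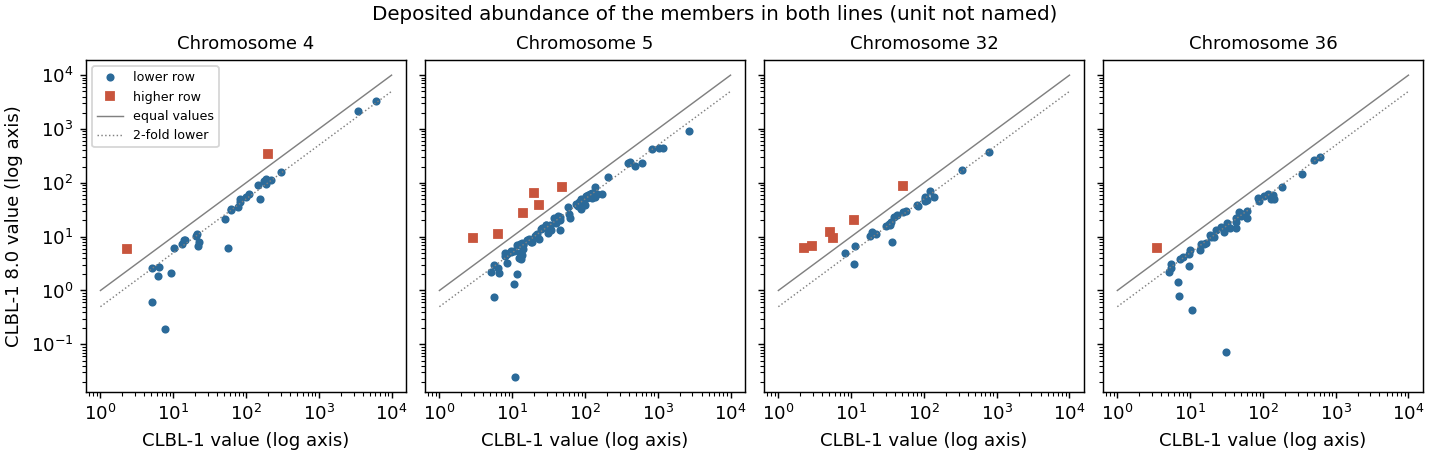
Deposited value in CLBL-1 8.0 (y axis) against CLBL-1 (x axis), both log axes with no named unit, for the rows of each stretch; blue circles are lower rows, red squares higher rows, the solid line marks equal values and the dotted line a 2-fold lower value. Lower rows follow the dotted line up to RPS14 at 3333 in CLBL-1 8.0 and 6037 in CLBL-1, and depart from it mostly at low values.

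**Figure D4:**
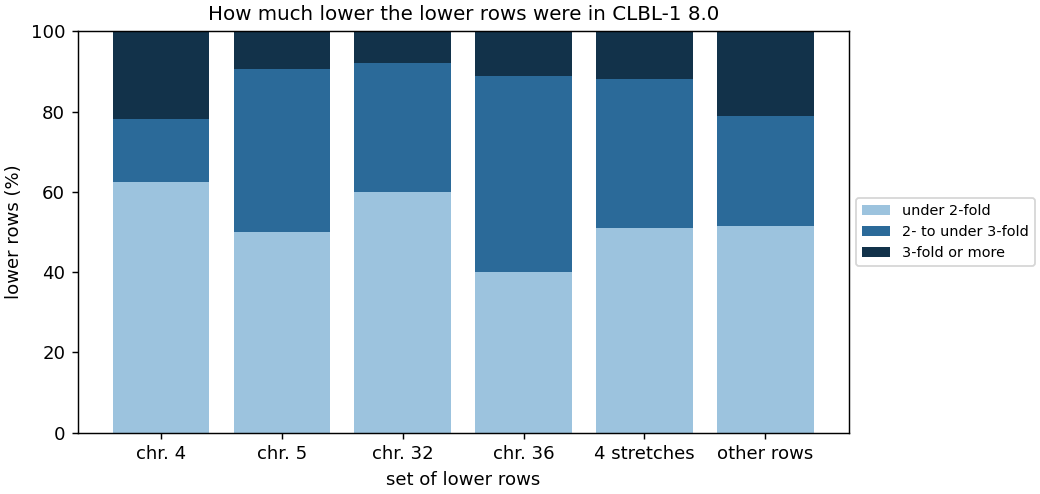
Percent of lower rows in 3 classes of fold, for each stretch, for the 4 stretches together and for the rows elsewhere with a finite fold. At least 3-fold lower were 21.9% on chromosome 4, 9.52% on chromosome 5, 8.00% on chromosome 32, 11.1% on chromosome 36, 11.8% over the stretches and 21.2% elsewhere.

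On chromosome 36 the listed rows ran from NR4A2, an orphan nuclear receptor (gene ID 478754, start 2546237), to NUP35, a nucleoporin (gene ID 478830, end 26168664), and every row but that of DLX2 was lower in CLBL-1 8.0. The last 23 rows, from a LOC placeholder to NUP35, formed an unbroken lower run. PDE1A, a calmodulin-dependent phosphodiesterase that breaks down cyclic nucleotides (gene ID 403652, positions 25250398 to 25591775, minus strand), was at 0.0706 in CLBL-1 8.0 and 31.3 in CLBL-1. Its rows on either side were close to the usual factor: SSFA2 was at 4.12 in CLBL-1 8.0 and 8.05 in CLBL-1, and DNAJC10, a disulfide reductase of the endoplasmic reticulum, at 29.9 in CLBL-1 8.0 and 59.8 in CLBL-1. GCA, the calcium-binding protein grancalcin (gene ID 608208, 7727578 to 7780439), was at 0.438 in CLBL-1 8.0 and 10.6 in CLBL-1. It too lay between rows of ordinary size, PSMD14 at 58.3 in CLBL-1 8.0 and 138 in CLBL-1, and COBLL1 at 26.7 in CLBL-1 8.0 and 53.9 in CLBL-1.

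How low PDE1A and GCA come out on a log scale depends on the pseudocount. The log2 difference of PDE1A was -8.79 without one, -4.92 with 1 and -2.84 with 5. For GCA it was -4.60, -3.01 and -1.52 under the same settings. The next largest decreases on the chromosome with at least 10 in the higher line were smaller. MTX2, a protein of mitochondrial outer membrane import (gene ID 478811), was at 49.8 in CLBL-1 8.0 and 143 in CLBL-1. WIPF1, which binds the actin regulator WASP in blood cells (gene ID 488409), was at 14.6 in CLBL-1 8.0 and 42.0 in CLBL-1. NUP35 was at 22.4 in CLBL-1 8.0 and 59.8 in CLBL-1. SPC25, a subunit of the NDC80 kinetochore complex (gene ID 488388), was at 50.7 in CLBL-1 8.0 and 130 in CLBL-1. SSB, the La protein that shields the ends of small RNAs (gene ID 478787), was at 145 in CLBL-1 8.0 and 343 in CLBL-1, and PSMD14, the deubiquitinase of the proteasome lid, was 2.37-fold lower. The 3 transcripts most abundant in CLBL-1 on this chromosome were ATP5G3, a membrane subunit of ATP synthase, at 306 in CLBL-1 8.0 and 604 in CLBL-1, then HNRNPA3, an RNA-binding protein, at 261 in CLBL-1 8.0 and 511 in CLBL-1, and SSB. Of these, ATP5G3 and HNRNPA3 were 1.97- and 1.96-fold lower.

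On chromosome 5 the rows were dense in places. Between MED31 and STX8, 32 of 33 rows were lower, by a median of 1.99-fold, and none of them reached 3-fold. From CENPV to MAP2K3, 19 of 20 rows were lower, by a median of 2.42-fold, and 4 reached 3-fold. From SERBP1 to CPT2 all 15 rows were lower, by a median of 1.95-fold. From PLEKHN1 to the end of the stretch, 9 of 12 rows were lower, by a median of 1.82-fold. These groups of rows were marked off after the values were seen, and the differences between them were not tested. The longest unbroken runs of lower rows in the 4 stretches were a pair of 28 rows each, both here, from EIF5A to B9D1 and from TOP3A to LOC100685503.

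CENPV, a centromere protein (gene ID 489523, 39568115 to 39582900), was close to 0 in the resistant sample, at 0.0252 in CLBL-1 8.0 and 11.1 in CLBL-1. Its log2 difference was -8.78 without a pseudocount, -3.56 with 1 and -1.68 with 5. DAB1, an adaptor protein best known from reelin signalling in neurons (gene ID 610344, 51397837 to 52505513), was at 1.35 in CLBL-1 8.0 and 10.7 in CLBL-1. B9D1, of the transition zone of primary cilia (gene ID 479519, 40854110 to 40866828), was at 2.07 in CLBL-1 8.0 and 11.8 in CLBL-1. DHRS7B, an enzyme of peroxisomal ether lipid synthesis (gene ID 479531), was at 13.1 in CLBL-1 8.0 and 46.0 in CLBL-1. OMA1, a stress-activated protease of the mitochondrial inner membrane, was at 3.89 in CLBL-1 8.0 and 13.1 in CLBL-1.

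Among the largest decreases on chromosome 5 were also highly abundant transcripts. RPL26, a protein of the large ribosomal subunit (gene ID 479496, 33152114 to 33158237), was at 911 in CLBL-1 8.0 and 2683 in CLBL-1. AURKB, the kinase of the chromosomal passenger complex in mitosis (gene ID 479492, 33014098 to 33028951), was at 61.9 in CLBL-1 8.0 and 170 in CLBL-1. GAS7, a protein with an F-BAR domain that binds membranes and actin (gene ID 608189), was at 22.2 in CLBL-1 8.0 and 61.4 in CLBL-1. SENP3, a SUMO protease of the nucleolus (gene ID 607655, 32485738 to 32500805), was at 439 in CLBL-1 8.0 and 1174 in CLBL-1. EIF5A, the hypusine-containing translation factor, was at 435 in CLBL-1 8.0 and 1054 in CLBL-1. In a reference table of dog genes, EIF4A1, which had no row, is the next protein-coding gene after SENP3. WRAP53, a component of telomerase and Cajal bodies, was at 16.6 in CLBL-1 8.0 and 32.8 in CLBL-1. Reads of overlapping genes may not have been separable, because no source used here gives the strand handling of the counting.

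On chromosome 4, 32 of 34 rows from MXD3 to MOCS2 were lower in CLBL-1 8.0, and 7 of the 32 (21.9%) reached 3-fold. ANXA6, a calcium-dependent membrane-binding annexin (gene ID 479325, 58091186 to 58140102), was at 6.24 in CLBL-1 8.0 and 55.9 in CLBL-1. Close to it, GM2A, the lysosomal activator of ganglioside breakdown (gene ID 100855818), was at 0.616 in CLBL-1 8.0 and 5.05 in CLBL-1, whereas CCDC69, the row between them, was at 6.27 in CLBL-1 8.0 and 10.4 in CLBL-1. LCP2, the adaptor SLP-76 of T cell and myeloid receptor signalling (gene ID 489126, 41611674 to 41656792), was at 0.196 in CLBL-1 8.0 and 7.73 in CLBL-1. The row after it, C4H5orf58, overlaps it by 155 bases on the other strand and was at 6.83 in CLBL-1 8.0 and 22.2 in CLBL-1. DOCK2, the leukocyte activator of the GTPase Rac that lies next, was at 30.7 in CLBL-1 8.0 and 61.3 in CLBL-1.

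Other large decreases on chromosome 4 were those of LARP1, which binds the cap of mRNAs encoding ribosomal proteins (gene ID 612929, 54991528 to 55046485), at 50.3 in CLBL-1 8.0 and 155 in CLBL-1, and of SNX18, a sorting nexin of endocytosis, at 7.86 in CLBL-1 8.0 and 22.9 in CLBL-1. RPL26L1, a close copy of RPL26, was at 21.5 in CLBL-1 8.0 and 51.7 in CLBL-1, and CNOT8, a deadenylase of the CCR4-NOT complex, at 35.9 in CLBL-1 8.0 and 76.6 in CLBL-1. MOCS2, of molybdenum cofactor synthesis, was at 10.1 in CLBL-1 8.0 and 20.3 in CLBL-1. CNOT8 overlaps GEMIN5 by 15810 bases on the other strand, so these 2 rows may share reads, and RPL26 and RPL26L1 may share reads as near copies. The most abundant transcripts were lower by less: RPS14, of the small ribosomal subunit (gene ID 403690), by 1.81-fold, NPM1, a histone chaperone of the nucleolus (gene ID 479292), at 2138 in CLBL-1 8.0 and 3452 in CLBL-1, and MRPL22, of the mitochondrial ribosome, at 162 in CLBL-1 8.0 and 298 in CLBL-1.

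The lower rows of chromosome 32 did not extend along its whole length. All 23 rows from RCHY1, a ubiquitin ligase (gene ID 612746, start 67136), to TRMT10A, a tRNA methyltransferase (gene ID 487872, end 21570894), were lower in CLBL-1 8.0, by a median of 1.95-fold. Of the 8 rows beyond TRMT10A, 6 were higher and 2 lower, and their log2 differences had a median of 0.80. The 2 lower rows were RPL34, a ribosomal protein gene at 70.7 in CLBL-1 8.0 and 121 in CLBL-1, and LOC102151754, described as a pseudogene of a cytochrome c oxidase subunit, at 4.93 in CLBL-1 8.0 and 8.11 in CLBL-1. The split at TRMT10A was read off the values. CXCL10, an interferon-induced chemokine (gene ID 478432, 598406 to 599925), was at 7.80 in CLBL-1 8.0 and 36.8 in CLBL-1, and BMPR1B, a receptor for bone morphogenetic proteins (gene ID 478484, 17761555 to 17978056), at 3.05 in CLBL-1 8.0 and 11.02 in CLBL-1. Those were the only rows of this chromosome past 3-fold.

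The next decreases on chromosome 32 were of ordinary size. MRPS18C, of the mitochondrial ribosome, was at 54.8 in CLBL-1 8.0 and 139 in CLBL-1. EIF4E, which binds the mRNA cap to start translation, was at 48.0 in CLBL-1 8.0 and 110 in CLBL-1. PLAC8 was at 46.1 in CLBL-1 8.0 and 104 in CLBL-1, NUDT9, an ADP-ribose hydrolase, was 2.19-fold lower, and USO1, a tether of vesicles to the Golgi, was 2.08-fold lower. The neighbours HNRNPD and HNRNPDL encode related AU-rich RNA-binding proteins and were both abundant. HNRNPD was at 373 in CLBL-1 8.0 and 775 in CLBL-1, and HNRNPDL at 175 in CLBL-1 8.0 and 338 in CLBL-1.

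The ends of the stretches of chromosomes 4 and 5 are fixed positions, in stretches picked for their lower rows. At the right end of chromosome 5 they do not follow the direction of the rows. Just inside the left end of chromosome 4, MXD3, a MAX-binding repressor, was at 7.43 in CLBL-1 8.0 and 13.2 in CLBL-1. Just outside it, PRR7 was at 75.7 in CLBL-1 8.0 and 47.3 in CLBL-1. Inside the right end lies MOCS2, given above, and outside it LOC102157144, at 20.2 in CLBL-1 8.0 and 9.45 in CLBL-1. On the rest of chromosome 4, 16 of the 21 rows before the stretch and all 7 rows after it were higher. On chromosome 5 the first row inside was LOC100685611, described as a ribosomal protein L39 gene, at 4.64 in CLBL-1 8.0 and 13.8 in CLBL-1, and the nearest row outside was SIK2, a salt-inducible kinase, at 19.7 in CLBL-1 8.0 and 9.36 in CLBL-1. At the other end, TNFRSF14, at 16.7 in CLBL-1 8.0 and 29.0 in CLBL-1, is followed by the higher row FAM213B inside and by SMIM1 outside, at 23.2 in CLBL-1 8.0 and 37.6 in CLBL-1. Of the 37 rows before this stretch 34 were higher, and of the 26 after it 16 were higher and 10 lower, so this last end was the least sharp.

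The 15 higher rows were 12 genes with a symbol and 3 LOC placeholders, higher by 1.67- to 3.28-fold. On chromosome 5, FAM213B was at 65.4 in CLBL-1 8.0 and 20.0 in CLBL-1. DVL1, a cytoplasmic transducer of Wnt signals, was at 9.36 in CLBL-1 8.0 and 2.86 in CLBL-1, between 2 lower neighbours, CPTP at 15.2 in CLBL-1 8.0 and 32.4 in CLBL-1, and AURKAIP1 at 236 in CLBL-1 8.0 and 390 in CLBL-1. PLEKHN1 was at 28.1 in CLBL-1 8.0 and 13.9 in CLBL-1. SHMT1, the cytosolic serine hydroxymethyltransferase of folate metabolism, was at 84.4 in CLBL-1 8.0 and 49.01 in CLBL-1, beside TOP3A, a type I topoisomerase that resolves recombination intermediates, at 20.2 in CLBL-1 8.0 and 45.7 in CLBL-1. CYB5D2 was 1.67-fold higher, and YBX2, a germ cell RNA-binding protein, 1.78-fold higher.

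SPARC, a secreted matrix glycoprotein on chromosome 4 (gene ID 100855736), was at 340 in CLBL-1 8.0 and 198 in CLBL-1 and was the most abundant of the higher rows. On chromosome 36 the homeobox gene DLX2 was at 6.29 in CLBL-1 8.0 and 3.52 in CLBL-1. The higher rows of chromosome 32 with a symbol were CXXC4, an inhibitor of Wnt signalling, at 6.82 in CLBL-1 8.0 and 2.89 in CLBL-1, NEUROG2, a neuronal transcription factor, at 12.2 in CLBL-1 8.0 and 5.11 in CLBL-1, ANK2, an ankyrin, at 20.3 in CLBL-1 8.0 and 10.9 in CLBL-1, and CAMK2D, a calcium/calmodulin-dependent kinase, at 87.8 in CLBL-1 8.0 and 51.2 in CLBL-1. NEUROG2 overlaps the higher row LOC111093651 by 2554 bases on the other strand. When differences were centred on the median of all rows, 3 of the 15 came out below 0, namely CYB5D2 at -0.016, DLX2 at -0.043 and LOC102154795 at -0.085, so these were higher by less than the median row of the table.

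The 173 lower rows with a symbol were sorted by role after their symbols and values had been seen, so the groups are a way of reading the list and hold only lower rows. The cytosolic ribosomal proteins RPL26, RPL26L1, RPL34 and RPS14 were 1.72- to 2.94-fold lower. Ribosome assembly, tRNA and translation had 16 genes from all 4 stretches, with a median fold of 2.25. Beyond LARP1, EIF5A, EIF4E, NPM1 and SSB, they included SERBP1, an mRNA- and ribosome-binding protein, at 236 in CLBL-1 8.0 and 608 in CLBL-1, and DRG2, a GTPase tied to ribosomes, at 32.9 in CLBL-1 8.0 and 87.6 in CLBL-1. ELAC2, the nuclease that trims the 3′ end of tRNA precursors, was at 52.5 in CLBL-1 8.0 and 126 in CLBL-1. RARS, the arginyl-tRNA synthetase, was at 118 in CLBL-1 8.0 and 191 in CLBL-1, the smallest decrease in that group beside NPM1. The 8 genes of mRNA splicing, transport and decay had a median fold of 1.95, and CWC22, a spliceosome protein, was the lowest of them, at 14.6 in CLBL-1 8.0 and 35.3 in CLBL-1.

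**Figure D5:**
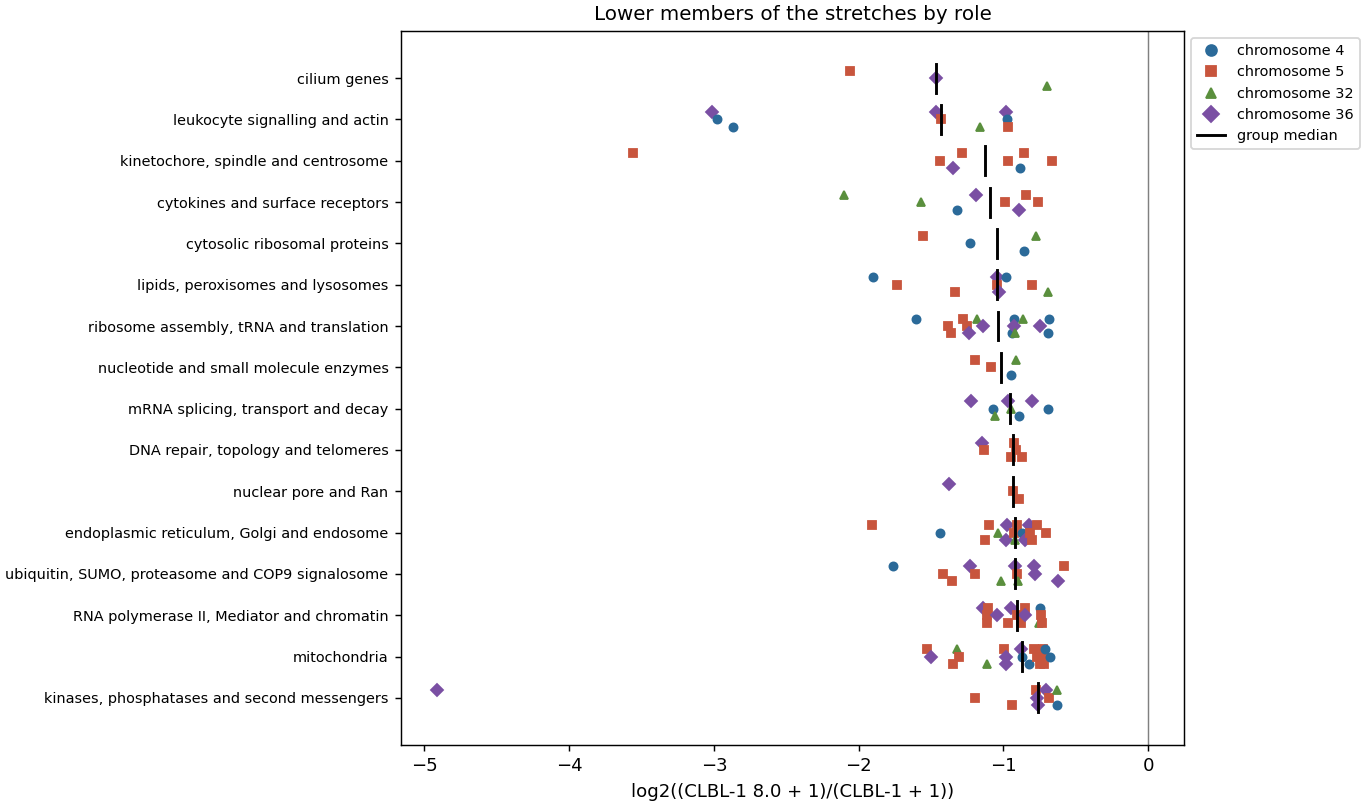
Log2((CLBL-1 8.0 + 1)/(CLBL-1 + 1)) of the lower genes of the 4 stretches by role, with a symbol per stretch and a black bar at each group's median. Medians lie between -1.46 (cilium genes, 3 rows) and -0.76 (kinases, phosphatases and second messengers, 10 rows), and most groups hold genes of several chromosomes.

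Mitochondrial genes were the largest role, with 20 rows from all 4 stretches, 1.64- to 3.36-fold lower and with a median fold of 1.89. They covered the mitochondrial ribosome (MRPS18C, MRPL22 and MRPL20, the last at 423 in CLBL-1 8.0 and 842 in CLBL-1), respiratory chain and ATP synthase (NDUFS4 at 109 in CLBL-1 8.0 and 179 in CLBL-1, and ATP5G3), and carriers. SLC25A11, the oxoglutarate carrier, was at 53.9 in CLBL-1 8.0 and 139 in CLBL-1. CPT2, the inner-membrane enzyme of fatty acid import, was at 127 in CLBL-1 8.0 and 210 in CLBL-1. PDK1, which inactivates pyruvate dehydrogenase, was at 62.8 in CLBL-1 8.0 and 116 in CLBL-1. Protein turnover had 13 rows. PSMB6, a catalytic subunit of the proteasome core, was at 209 in CLBL-1 8.0 and 479 in CLBL-1, on chromosome 5, and PSMD14 of the lid, on chromosome 36, was lower by nearly the same factor, 2.30- and 2.37-fold. Of the COP9 signalosome, which removes NEDD8 from ubiquitin ligases, COPS3 on chromosome 5 was at 38.3 in CLBL-1 8.0 and 99.3 in CLBL-1, and COPS4 on chromosome 32 at 50.7 in CLBL-1 8.0 and 104 in CLBL-1.

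Genes of chromosome segregation were lower on 3 of the chromosomes. The 8 rows of kinetochore, spindle and centrosome had a median fold of 2.29 and included, besides CENPV, AURKB and SPC25, MIS12, a kinetochore scaffold, at 22.9 in CLBL-1 8.0 and 45.9 in CLBL-1. HMMR, a spindle-associated hyaluronan receptor, was at 45.0 in CLBL-1 8.0 and 83.9 in CLBL-1, and CNTROB, of centriole duplication, at 9.03 in CLBL-1 8.0 and 23.4 in CLBL-1. DNA repair, topology and telomeres had 6 rows, 1.90- to 2.28-fold lower. Among them USP1, which removes ubiquitin from the Fanconi anaemia proteins, was at 55.9 in CLBL-1 8.0 and 106 in CLBL-1, and FAAP20, of the Fanconi core complex, at 66.0 in CLBL-1 8.0 and 126 in CLBL-1. TLK1, a kinase of histone chaperones, was at 18.6 in CLBL-1 8.0 and 42.4 in CLBL-1.

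The transcription machinery was represented by 15 rows with a median fold of 1.96. POLR2A, the largest subunit of RNA polymerase II, was at 39.04 in CLBL-1 8.0 and 77.1 in CLBL-1. Of the Mediator complex, which links transcription factors to the polymerase, MED9 was at 7.99 in CLBL-1 8.0 and 18.5 in CLBL-1, MED11 at 44.2 in CLBL-1 8.0 and 82.0 in CLBL-1, and MED31 at 7.39 in CLBL-1 8.0 and 13.0 in CLBL-1. HAT1, which acetylates new histone H4, was at 45.4 in CLBL-1 8.0 and 88.4 in CLBL-1, and ATF2, a stress-activated transcription factor, at 5.76 in CLBL-1 8.0 and 13.9 in CLBL-1. The secretory route had 17 rows with a median fold of 1.92, from the COPII coat protein SEC31A, at 29.6 in CLBL-1 8.0 and 56.9 in CLBL-1, and the Golgi stacking protein GORASP2, at 58.1 in CLBL-1 8.0 and 104 in CLBL-1, to TOM1L2, an endosomal adaptor at 0.757 in CLBL-1 8.0 and 5.58 in CLBL-1. The nucleoporins NUP35 and NUP88 were 2.67- and 1.87-fold lower.

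The 9 rows of leukocyte signalling and actin had a median fold of 2.77, with GCA, LCP2 and ANXA6 past 5-fold and WIPF1, GAS7, PLAC8, DOCK2, COBLL1 and MPRIP between 1.997- and 2.89-fold lower. As the group was drawn up with the values known, that median stands as a description. Of 8 cytokines and surface receptors, CXCL10 was lowest. TANK, an adaptor of the TRAF and TBK1 pathway, was at 12.4 in CLBL-1 8.0 and 29.4 in CLBL-1. ADORA2B, an adenosine receptor, was at 41.1 in CLBL-1 8.0 and 74.4 in CLBL-1, and ROR1, a receptor tyrosine kinase of Wnt signalling, at 53.1 in CLBL-1 8.0 and 107 in CLBL-1. In the MAP kinase pathway, MAPK7 was at 4.98 in CLBL-1 8.0 and 12.7 in CLBL-1, MAP2K3 at 36.04 in CLBL-1 8.0 and 58.4 in CLBL-1, and the phosphatase DUSP1 at 8.71 in CLBL-1 8.0 and 14.0 in CLBL-1. Among enzymes of lipids and small molecules, AGPS, of ether lipid synthesis like DHRS7B, was at 24.3 in CLBL-1 8.0 and 50.8 in CLBL-1. PFAS, of purine synthesis, was at 62.8 in CLBL-1 8.0 and 145 in CLBL-1. ADH5, which clears formaldehyde, was at 54.5 in CLBL-1 8.0 and 103 in CLBL-1, and ALDH3A2, a fatty aldehyde dehydrogenase, at 11.8 in CLBL-1 8.0 and 31.4 in CLBL-1.

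Several less known members filled out these roles. NOP16, of nucleolar ribosome assembly, was at 115 in CLBL-1 8.0 and 222 in CLBL-1, and G3BP1, which seeds stress granules, at 96.8 in CLBL-1 8.0 and 185 in CLBL-1. OLA1, an ATPase of the Obg family, was at 83.3 in CLBL-1 8.0 and 185 in CLBL-1. SFXN1, the mitochondrial serine carrier, was at 62.0 in CLBL-1 8.0 and 110 in CLBL-1. ATAD3A, an ATPase of the mitochondrial inner membrane, was at 241 in CLBL-1 8.0 and 411 in CLBL-1, and TMEM11, of the same membrane, at 35.5 in CLBL-1 8.0 and 89.4 in CLBL-1. These genes were 1.71- to 2.52-fold lower.

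Protein quality control at the endoplasmic reticulum was represented by DERL2, of the degradation channel, at 18.3 in CLBL-1 8.0 and 40.4 in CLBL-1, and by UBE2J2, a ubiquitin-conjugating enzyme of that membrane, at 63.3 in CLBL-1 8.0 and 120 in CLBL-1. UBTD2, a protein with a ubiquitin domain, was at 2.08 in CLBL-1 8.0 and 9.43 in CLBL-1. ATG4C, a protease of autophagy, was at 2.08 in CLBL-1 8.0 and 6.65 in CLBL-1, and ULK2, a kinase that starts autophagy, at 7.49 in CLBL-1 8.0 and 13.5 in CLBL-1. The cilium genes were low in both lines: TTC21B, of retrograde transport in cilia, was at 2.897 in CLBL-1 8.0 and 9.75 in CLBL-1, and PKD2, a polycystin channel, at 6.58 in CLBL-1 8.0 and 11.3 in CLBL-1. CERS6, a ceramide synthase, was at 9.79 in CLBL-1 8.0 and 21.2 in CLBL-1, and STK39, a kinase that regulates chloride cotransporters, at 28.2 in CLBL-1 8.0 and 46.6 in CLBL-1. Of the 16 LOC placeholders in the stretches 13 were lower, and those described as ribosomal protein genes or pseudogenes may share reads with the genes they copy.

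Of the 186 lower rows 10 (5.38%) were at least 5-fold lower, against 42 of the 410 elsewhere (10.2%). The 10 were PDE1A, GCA and a LOC placeholder on chromosome 36, CENPV, DAB1, TOM1L2 and B9D1 on chromosome 5, and LCP2, ANXA6 and GM2A on chromosome 4. In 7 of the 10 the value in CLBL-1 8.0 was below 1, and in CLBL-1 all 10 lay between 5.05 and 55.9. On chromosome 32 no row reached 5-fold.

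The 13 lists of genes by function had 145 distinct rows in the table. In the stretches, 71 of 73 such rows were lower (median of -0.98 on the log2 scale), and elsewhere 21 of 72 (29.2%) were lower, with a median of 0.74. These shares were near those of any row, since 92.5% of all rows inside and 27.2% of all rows elsewhere were lower. For ubiquitin, SUMO and proteasome genes, 8 of 8 were lower in the stretches and 2 of 7 elsewhere. For membrane trafficking it was 5 of 5 in the stretches and 0 of 7 elsewhere, and for kinase, GTPase and lipid signalling 9 of 10 and 2 of 10. Translation factors and ribosomal proteins had 9 of 9 lower inside and a single row elsewhere, which was higher. The lists were chosen with earlier results of these data known. Of their 145 rows, 73 lay inside, beside 11.6% of all rows of the table. How many rows of a list lay inside therefore describes the list and tests nothing. Mitochondrial metabolism had 7 of 7 lower inside and 0 of 3 elsewhere, and nutrient transporters and metabolic enzymes 5 of 5 inside and 4 of 7 elsewhere. DNA replication, repair and cell cycle had 6 of 6 lower inside and 2 of 5 elsewhere, and RNA splicing, processing and decay 6 of 6 and 1 of 2. Immune genes had 4 of 4 lower inside and 3 of 10 elsewhere, cytoskeleton and cilium genes 4 of 4 and 1 of 5, chromatin and transcription regulators 4 of 5 and 3 of 8, and mitochondrial translation 3 of 3 and 1 of 3. Of the apoptosis list, BNIP1 lay inside, at 11.2 in CLBL-1 8.0 and 21.4 in CLBL-1, and 2 of 4 rows elsewhere were lower. The direction inside follows from how the stretches were picked.

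The authors' deposited tables of ontology and pathway terms were read the same way. Of 168 terms, 115 held at least 1 gene of the stretches. The nucleoplasm term held the most, with 29 of its 131 genes in the stretches, all 29 lower, and 24 of the 102 elsewhere lower. Its p-value in the authors' deposited table was 0.0148. Mitochondrion had 13 of 14 lower in the stretches and 18 of 70 elsewhere, with a p-value of 0.0247 in the authors' deposited table, and endoplasmic reticulum 7 of 7 in the stretches and 11 of 44 elsewhere. In the MAPK signalling pathway, 5 of 5 were lower in the stretches and 3 of 23 elsewhere, while the kinetochore term was lower on both sides, with 3 of 3 in the stretches and 4 of 6 elsewhere. In the authors' deposited table the p-values were 0.0280 for endoplasmic reticulum, 0.0873 for MAPK signalling and 0.0883 for kinetochore. The stretches held 11.6% of all rows and 11.96% of the 945 rows in any term. They held 22.1% of the nucleoplasm rows, 16.7% of mitochondrion, 11.7% of extracellular exosome, 9.23% of Golgi apparatus, 8.79% of zinc ion binding, 5.19% of intracellular and 4.60% of metal ion binding, and 3 of 9 kinetochore rows.

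The stretches were also represented more densely in the table than the pooled autosomes outside them. In the reference gene order, 24.4% of the 168 protein-coding genes of chromosome 36 had a row, 18.4% of 450 on the chromosome 5 stretch, 15.7% of 197 on the chromosome 4 stretch and 12.1% of 224 on chromosome 32, against 6.75% of the 18736 on autosomes outside them. The pooled share does not show how dense any single chromosome was. Chromosome 6 had 227 rows, against 201 in the 4 stretches, and 13 of the 227 were lower. The share of its protein-coding genes with a row was not analysed here. A lower row was found for 16.5% of the 1039 protein-coding genes of the 4 stretches together and for 1.75% of those on autosomes outside them. The stretches were picked for their lower rows, so a larger share inside follows from that choice and tests nothing. Most genes of the stretches, 857 of 1039, had no row and were not analysed here. Runs of directly neighbouring protein-coding genes that all had a lower row were short. The longest had 5, AURKB, CTC1, PFAS, SLC25A35 and RANGRF on chromosome 5, which were 1.90- to 2.74-fold lower and encode a mitotic kinase, a telomere protein, a purine enzyme, a mitochondrial carrier and a Ran-binding protein. Runs of 4 on chromosome 36 were GORASP2, TLK1, METTL8 and DCAF17, and CIR1, SCRN3, GPR155 and WIPF1. RANGRF and SLC25A35 overlap by 30 bases on opposite strands, METTL8 and DCAF17 by 7, and SSB and METTL5 by 294, so reads of these pairs may not have been separable either.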

How the data were processed

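RNA was the only molecule measured, as 1 poly-A-selected library for each line. The submitters' processing notes name HISAT2, StringTie and CanFam3.1; no source used here gives versions, settings or annotation. The abundance of each gene in each line was deposited by the authors with no named unit. The log2 fold change is the authors', and equals log2 of CLBL-1 8.0 over CLBL-1 to within 1.6e-14. The count of genes and the p-value of each term are the authors' as deposited, and the tool and background behind them are stated nowhere in them.

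Members were found by position, and the log2 difference used a pseudocount of 1 without a filter on low values. The lines were not tested against each other, since 1 sample stands for each; counts and medians were set beside those of all 1729 rows. On simulated data, only the count of lower rows per stretch was checked. The interval of a median was checked on a made-up series, and the other summaries had no such check. Members, lists and rules were chosen with earlier results of these data known. Named were, among rows without a LOC placeholder name and per stretch, the 8 largest decreases with at least 10 in the higher line, the 3 highest CLBL-1 values, all higher rows, first and last rows, and up to 4 genes of each of 13 lists; other genes were named after their values were seen. Of 201 members, 194 have a gene ID and 189 were found in a RefSeq table of dog genes, assembly UU_Cfam_GSD_1.0, all on the same chromosome; it served for names, order, overlaps and the number of annotated protein-coding genes. Of the 189, 56 overlap another protein-coding gene there, and 8 pairs of members overlap on opposite strands in the deposited positions. Against the deposited positions, the RefSeq order was reversed for 27 of 28 adjacent pairs of members on chromosome 32. It was reversed for 1 of 83 pairs on chromosome 5 and for 0 on chromosomes 4 and 36. Python 3.11.15, pandas 2.3.3 and matplotlib 3.10.9 were used.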

Additional observations from a re-analysis of the deposited data

How the results depend on the processing

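Each group is 1 sample with unknown depth, so counting error could not be given, and no paired analysis was possible because the result comes from no test. Of 516 comparisons of a count or median with its value under an alternative, 454 stayed within 1.5 times (counts) or the binomial interval of the median, and no median reversed. For the shortest lists the full range of their values stood in for that interval, which made it easier to stay within. Centring and upper-quartile scaling were both computed from the listed rows alone, so they reflect the selection of rows. Centring on the median of all rows, which lowers each difference by 0.73, gave medians of -1.66 (4 stretches), -1.61 (chromosome 4), -1.67 (5), -1.63 (32) and -1.71 (36). The lists' medians became -1.74 (splicing), -1.68 (chromatin), -1.55 (cytoskeleton), -1.91 (ribosome), -1.69 (kinases), -1.65 (trafficking), -1.71 (mitochondrial metabolism), -1.72 (mitochondrial translation), -1.93 (transporters) and -1.84 (ubiquitin). Rows at least 2-fold lower on the log2 scale, 76 of 201 beside 14.4% of all rows, became 186, and 32, 84, 25 and 45 for chromosomes 4, 5, 32 and 36; the higher row of chromosome 36 was gone (0), with CYB5D2 at -0.016 and DLX2 at -0.043, and 12 of the 15 higher rows stayed above 0. Upper-quartile scaling gave medians of -1.24 (4 stretches), -1.20 (4), -1.25 (5), -1.22 (32) and -1.30 (36), list medians of -1.33 (splicing), -1.27 (chromatin), -1.25 (kinases) and -1.43 (ubiquitin), and 177 rows at least 2-fold lower, or 29, 82, 22 and 44 by chromosome. A pseudocount of 5 gave medians of -0.82 (4 stretches), -0.82 (5), -0.83 (36) and -0.69 (cytoskeleton list), and 50 rows at least 2-fold lower, with 25 on chromosome 5 and 12 on 36.

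Higher rows, 15 in all, were 23 with chromosomes 4 and 5 lengthened by 2 Mb an end (5 on chromosome 4, 11 on 5), and 3 on chromosome 5 when shortened. With a mean of at least 10 they were 7 (1 on chromosome 4, 2 on 32, 0 on 36), with 6 rows at least 2-fold lower on chromosome 4 and 2 lower rows of the cytoskeleton list. With a mean of at least 5 they were 1 on chromosome 4 and 0 on 36, and without LOC names 1 on chromosome 4. Without the second of 4 equal parts of each stretch they were 1 on chromosome 4 and 0 on 36, with 5 rows at least 2-fold lower on 32; without the third, 1 on chromosome 4; without the last, 7 in all, 1 on 32 and 3 on 5. In these alternatives fewer or other rows were counted by construction.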
